A study of Mus musculus with 2 samples.

Results

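The miR-26 and miR-101 families were followed in serum exosomes of tumour-bearing mice as 4 mature miRNAs, mmu-miR-26a-5p, mmu-miR-26b-5p, mmu-miR-101a-3p and mmu-miR-101b-3p. They were taken from the scanner files by their names, 4 of 1881 mouse miRNAs and 8 of 4415 miRNA probes on the array, with 2 probes for each. These miRNAs were chosen by their known link to Ezh2 and by their signals on these same arrays, so the values below are a description and none is tested. The study injected LLC-luciferase cells, a Lewis lung carcinoma line that carries firefly luciferase, under the skin of young female C57BL/6 mice, 1000000 cells in each case, either alone (LLC) or together with murine bone marrow-derived mesenchymal stem cells (MSC+LLC). Serum was taken when the mean tumour volume reached 200 mm3, exosomes were isolated from it, and 100 ng of their total RNA was labelled with Cy3 and hybridised to a mouse miRNA array. Each group was 1 array, both on the same slide and in the same scan, so group, position on the slide and the animals behind each sample cannot be told apart. The number of mice in each sample is not given in the sources used here, and the labels name serum where the study's methods name plasma.

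Ezh2 is the methyltransferase of Polycomb repressive complex 2, which places the repressive methyl marks on lysine 27 of histone H3. miR-101 and miR-26a are known to repress Ezh2 through sites in its messenger RNA, and loss of miR-101 is known to go with high Ezh2 in several tumour types. miR-26 miRNAs are also known to act together with the small C-terminal domain phosphatases, the Ctdsp genes, whose introns carry the miR-26 precursors. A miRNA finds its targets mainly through its seed, the bases next to its 5′ end, so members with the same seed are expected to share targets. The arrays measured no messenger RNA, and the level of Ezh2 was not part of these data.

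The mature sequences, from RefSeq, are shown because the paralogs differ by few bases and gave different signals. Each is written 5′ to 3′ with the seed, bases 2 to 8, in capitals, and the last entries are miR-101c, a further miR-101 entry of the array, and 3 miRNAs of the Ezh2 list described later.
mmu-miR-26a-5p: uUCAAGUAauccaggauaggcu
mmu-miR-26b-5p: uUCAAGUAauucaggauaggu
mmu-miR-101a-3p: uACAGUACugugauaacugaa
mmu-miR-101b-3p: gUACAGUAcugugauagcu
mmu-miR-101c: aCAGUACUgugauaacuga
mmu-miR-144-3p: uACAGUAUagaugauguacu
mmu-let-7b-5p: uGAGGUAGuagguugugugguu
mmu-let-7f-5p: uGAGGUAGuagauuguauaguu
In the RefSeq table for GRCm38.p6, mmu-miR-26a-5p had 2 gene copies, at chr9:119031811-119031832 on the plus strand within the span of Ctdspl and at chr10:126995543-126995564 on the plus strand within the span of Ctdsp2. mmu-miR-26b-5p lay at chr1:74394324-74394344 on the plus strand within Ctdsp1. mmu-miR-101a-3p lay at chr4:101346957-101346977 on the minus strand within the span of the long non-coding RNA gene E130102H24Rik, and mmu-miR-101b-3p at chr19:29135338-29135356 on the plus strand within Rcl1. The table gave gene spans only, so exons and introns were not told apart here. The array design names the older build mm9, and no coordinate of the files was used.

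miR-26a-5p and miR-26b-5p had the same seed and were the same at 19 of 21 aligned bases, with the substitutions C11U and C21U counted from the 5′ end of miR-26a-5p. The entry for miR-101b-3p began 1 base before that of miR-101a-3p and matched it at 17 of 18 shared bases, with A16G at position 16 of miR-101a-3p. Because of that shift, the 7-base seeds of miR-101a-3p and miR-101b-3p differed as written in the table. miR-101c, 19 bases long, was contained whole within miR-101a-3p, so a probe for one may take up the other, and the probe sequences were not used here. miR-144-3p shared 6 of 7 seed bases with miR-101a-3p and differed at position 8.

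The arrays differed in brightness before any member was considered. Detection of a probe needed more than 50% of its kept spots to be well above background, and 502 miRNAs passed on LLC and 258 on MSC+LLC. Signals were then expressed relative to the 75th percentile over the 405 probes that passed on both, 2883 for LLC and 250.3 for MSC+LLC, an 11.5-fold difference. The hybridization spike-ins differed by only 0.04 and the labelling spike-ins by -1.32 (log2, MSC+LLC over LLC). Fewer vesicles from a cell type and less of a miRNA in each vesicle cannot be told apart in such samples. After scaling, 240 miRNAs were measured on both arrays, with a median log2 ratio of 0.15. No spot was saturated. Every ± on a signal below is an SD over the replicate spots of an array. On a ratio or a difference of ratios, the ± is propagated from these SDs, and for averaged probes it is that of their mean. Both cover spot error and not the spread between mice.

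All 4 miRNAs were detected in LLC serum exosomes, on 8 of 8 probes, and 3 were detected in MSC+LLC serum exosomes, on 4 of 8 probes. Of all 1881 miRNAs, 502 and 258 were detected on these arrays. After scaling, miR-26b-5p was 4.43-fold lower and miR-101a-3p 2.86-fold lower on the MSC+LLC array, whereas miR-26a-5p was 1.13-fold lower. miR-101b-3p in MSC+LLC was not well above background. The directions of miR-26a-5p and miR-101a-3p depended on the background correction. With normexp correction they were higher by 0.95 and 0.076 on the log2 scale, and miR-26b-5p stood at -0.76. That correction adds an offset of 50, above the MSC+LLC means of the detected member probes (20.2 to 36.8). It also brought the median of all measured miRNAs to 0.84, from 0.15. Among the 3 members with a ratio, 2 were lower by 2-fold or more, beside 11.2% of all 240 measured miRNAs. With normexp correction 0 of 3 were, beside 4.17% of all. Where every kept spot had to be well above background 1 of 2 was, beside 8.08% of all, with no ratio left for miR-101a-3p. The nearest miRNAs on either side of that 2-fold line were miR-15b-5p at -1.04 and miR-20a-5p at -0.97.

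**Figure D1:**
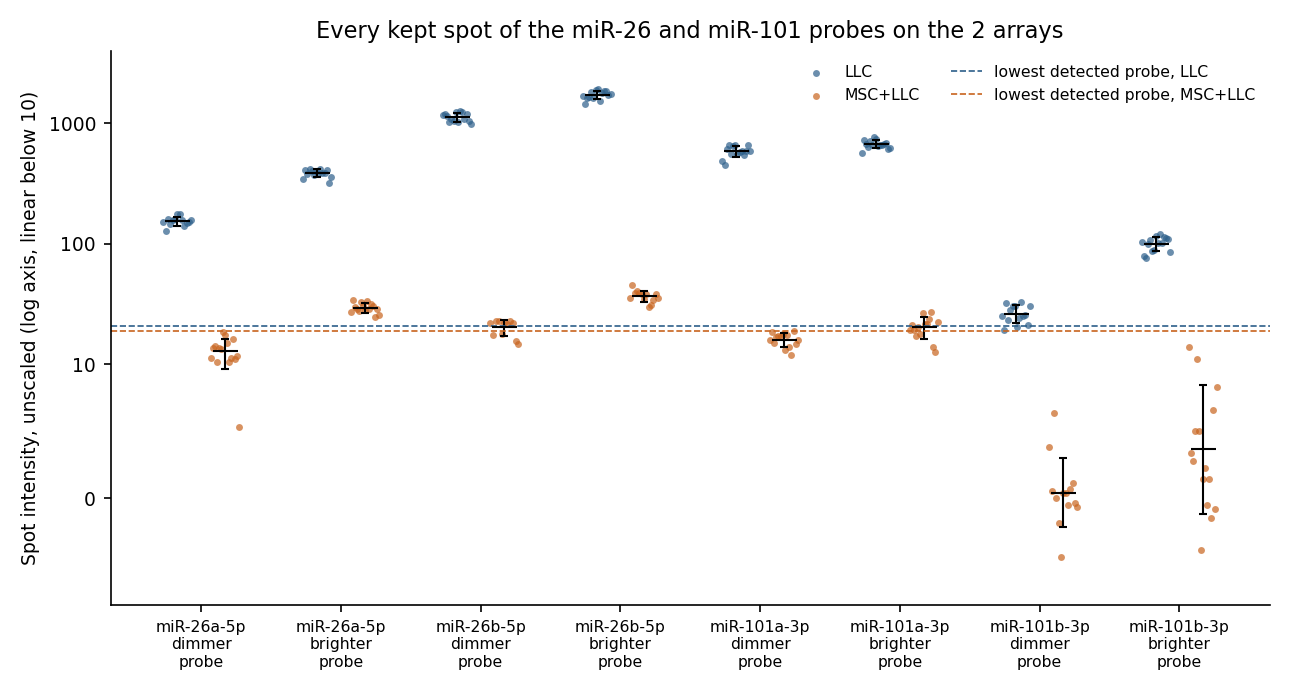
Intensity of every kept spot of the 8 member probes on the LLC (blue) and MSC+LLC (orange) arrays, before scaling, on an axis that is logarithmic above 10 and linear below it. Black bars are means with the SD over spots, and dashed lines the lowest detected probe of each array (20.9 and 18.8). Arrays are to be compared within a probe, and their 75th percentiles differed 11.5-fold before scaling.

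miR-26a-5p was the member with the smallest change. On its brighter probe the LLC array gave 385 ± 29.1 (14 spots, 321 to 420) and the MSC+LLC array 29.6 ± 2.68 (15 spots, 24.7 to 34.0), unscaled. Every kept spot of this probe was well above background on both arrays. The 13.0-fold unscaled difference was close to the 11.5-fold difference between the arrays, which left a log2 ratio of -0.18 ± 0.17. Its dimmer probe gave 155 ± 13.3 (13 spots) on LLC and 12.9 ± 3.30 (15 spots) on MSC+LLC, where none of the 15 spots was well above background. That probe was at least 8.25-fold lower unscaled and gave no bound after scaling, because its scaled LLC level, 5.37% of the 75th percentile, was under the 7.51% of the dimmest detected MSC+LLC probe. The ratio of miR-26a-5p therefore rests on 1 probe.

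miR-26b-5p was lower on both of its probes. Its brighter probe gave 1726 ± 136 (14 spots, 1459 to 1914) on LLC and 36.8 ± 4.04 (13 spots, 30.0 to 45.2) on MSC+LLC, a log2 ratio of -2.02 ± 0.19. All 13 kept spots in MSC+LLC were well above background. The dimmer probe gave 1124 ± 92.6 (14 spots, 986 to 1263) and 20.2 ± 3.11 (11 spots, 14.8 to 23.1), a log2 ratio of -2.27 ± 0.25. On MSC+LLC, 7 of these 11 spots were well above background and 4 further spots had been left out as outliers, so this probe lay near the detection limit. The probes differed by about the spot error of their ratios, and their mean was -2.15 ± 0.16. Before scaling the same probes were 46.9-fold and 55.6-fold lower.

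The miR-26 paralogs thus stood apart although their seeds are the same. The log2 ratio of miR-26b-5p was below that of miR-26a-5p by 1.97, as the difference -1.97 ± 0.23, a 3.91-fold gap that is much larger than the spot error. This difference does not depend on any scaling by 1 constant per array, so the alternatives of that kind could not change it. Over the alternatives that could, it lay between -2.13 and -1.71. Only the normexp value, -1.71, differed from it by more than the spot error. With 1 array in each group, the gap has no replicate check.

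miR-101a-3p rests on 1 dim probe. Its brighter probe gave 670 ± 52.4 (15 spots, 566 to 764) on LLC and 20.4 ± 4.15 (14 spots, 12.8 to 27.2) on MSC+LLC, a log2 ratio of -1.51 ± 0.31. In MSC+LLC, 8 of 14 spots were well above background, close to the 50% that had to be exceeded. The dimmer probe gave 584 ± 63.4 (14 spots) on LLC and 16.0 ± 2.05 (14 spots) on MSC+LLC, where no spot was well above background. Set against the lowest detected probe of that array, it was at least 2.70-fold lower after scaling and at least 31.1-fold lower before it. The log2 ratio of miR-101a-3p was above that of miR-26b-5p by 0.63 ± 0.35 and differed from that of miR-26a-5p by -1.34 ± 0.36.

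miR-101b-3p was seen on the LLC array alone. Its brighter probe gave 100.1 ± 13.6 (15 spots, all well above background) on LLC and 3.65 ± 4.85 (15 spots, none above background) on MSC+LLC. Its dimmer probe gave 26.3 ± 4.47 (14 spots, 11 above background) and 0.425 ± 2.57 (13 spots, none above background). On MSC+LLC both probes lay in the range of the negative control spots, which read 3.70 ± 3.43 (965 spots). Unscaled, the brighter probe was at least 5.33-fold lower and the dimmer at least 1.40-fold lower. After scaling neither gave a bound, since their LLC levels were 3.47% and 0.914% of the 75th percentile, under the 7.51% that could be detected on MSC+LLC. A fall of miR-101b-3p relative to the other miRNAs was therefore not detectable with this detection rule, while a rise of 2.16-fold would have brought its brighter probe to that limit. With looser rules for detection, the lowest detected MSC+LLC probe read 0.429 (at least 1 spot above background) or 0.0984 (flag of the scanner software), both below the mean of the negative controls (3.70). The scaled values were then 2.52-fold and 2.62-fold lower for the brighter probe and 5.62-fold and 5.92-fold lower for the dimmer. They rest on MSC+LLC readings in the range of the negative controls, so they are not firm bounds. The difference of miR-101b-3p from miR-101a-3p has no value.

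miR-101c, whose sequence lies within miR-101a-3p, gave 814 ± 88.0 (15 spots) on LLC and 33.2 ± 5.99 (14 spots) on MSC+LLC on its brighter probe. Its log2 ratio was -1.09 ± 0.30, and it differed from miR-101a-3p by 0.43 ± 0.44, within the spot error. The other strands of the member precursors (miR-26a-1-3p, miR-26a-2-3p, miR-26b-3p, miR-101a-5p and miR-101b-5p) were measured by 14 probes. None of these 5 miRNAs was detected on either array, and their probe means lay between -4.18 and 1.91. Both families were thus detected only from the strand that is usually kept, 5p for miR-26 and 3p for miR-101.

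**Figure D2:**
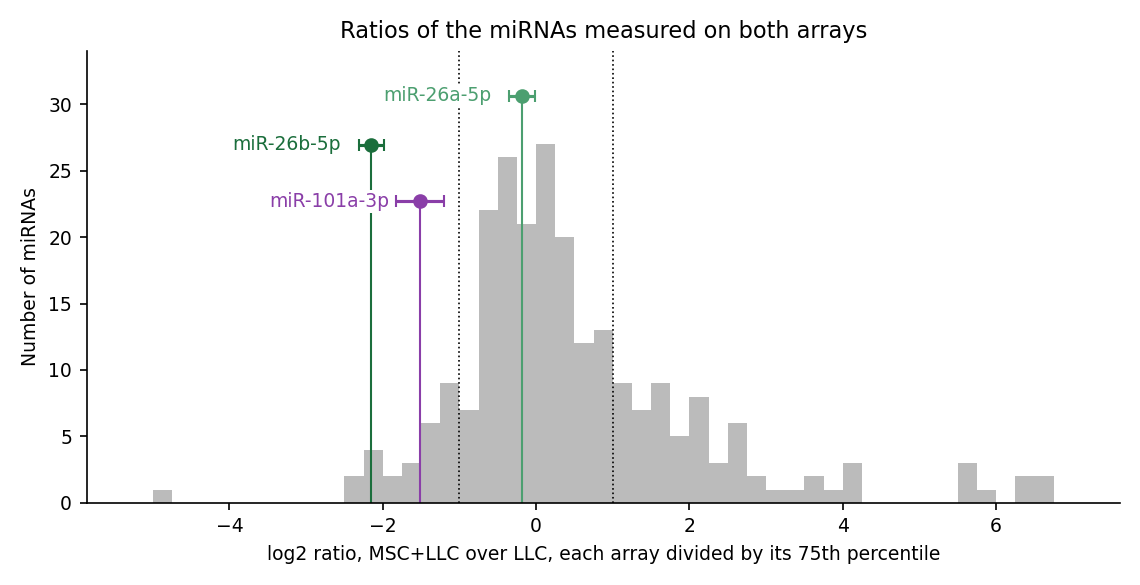
Histogram of the log2 ratios (MSC+LLC over LLC, scaled) of the 240 miRNAs measured on both arrays, with bins of equal width and dotted lines at 2-fold. The points mark the 3 measured members with the SD propagated from the spots. Their height has no meaning, and miR-26b-5p and miR-101a-3p lie in the lower tail while miR-26a-5p lies near the centre.

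Among the 240 measured miRNAs, whose middle lay between -0.45 and 1.18 (quartiles), miR-26b-5p ranked 6 from the lowest and miR-101a-3p ranked 11. miR-26a-5p ranked 86, with 35.4% of the measured miRNAs below it. The 3 miRNAs with 2 or more probes measured on both arrays and a ratio nearest to that of miR-26b-5p were miR-144-3p (-2.33), a miRNA of red cell precursors, let-7a-5p (-1.94) and let-7g-5p (-1.93). For miR-101a-3p they were let-7c-5p (-1.39), miR-3470a (-1.35) and let-7d-5p (-1.70). For miR-26a-5p they were miR-25-3p (-0.19), miR-6538 (-0.17) and miR-8101 (-0.17). Each likeness is of 1 ratio from 2 arrays.

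**Figure D3:**
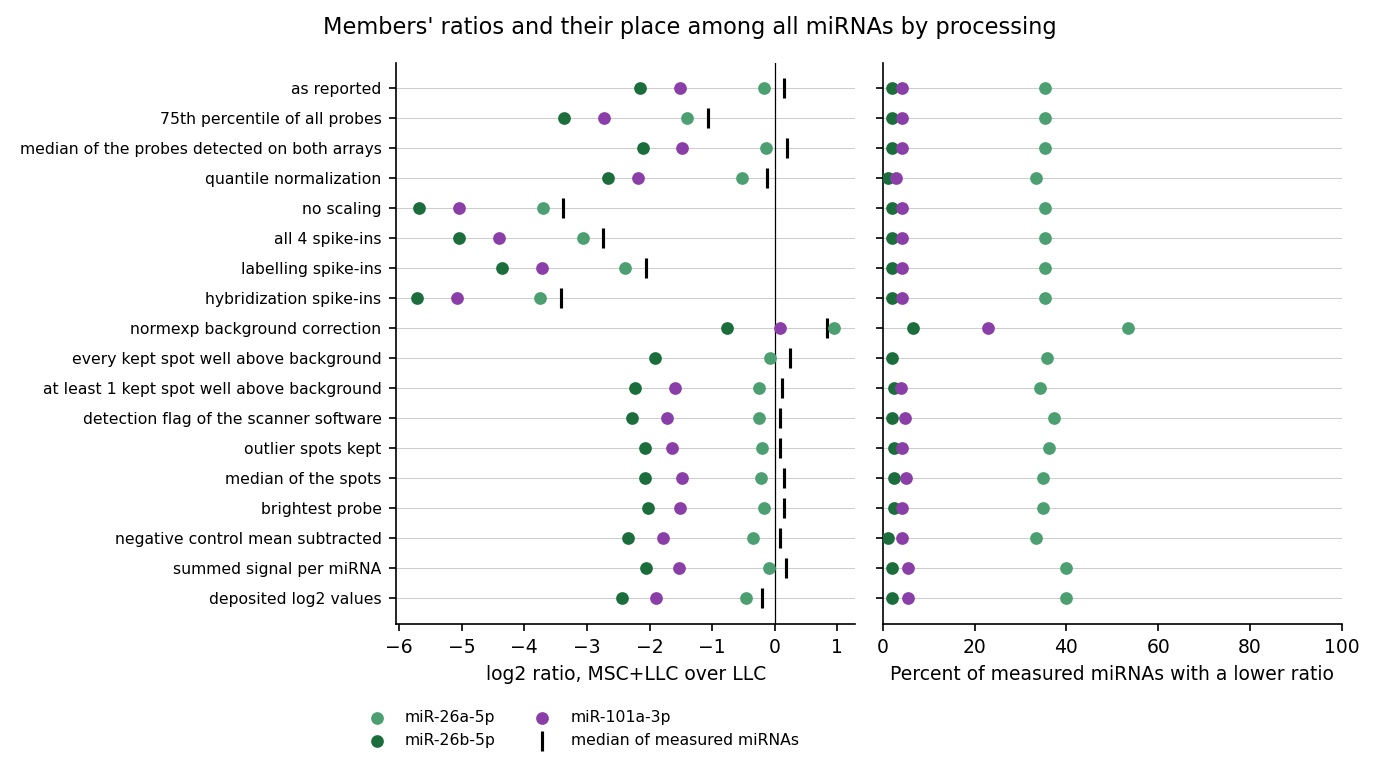
Left, log2 ratio (MSC+LLC over LLC) of the 3 measured members under the reported processing (top) and each alternative, with the median of the measured miRNAs as a black tick; right, the percent of measured miRNAs with a lower ratio. The scalings shift members and median together, and miR-26b-5p kept between 1.25% and 6.67% of the miRNAs below it.

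The place of each member among the measured miRNAs was followed as well. Scaling by 1 constant per array cannot change that place. Over the alternatives that gave it a ratio, between 1.25% and 6.67% of miRNAs lay below miR-26b-5p, and between 33.3% and 53.3% below miR-26a-5p. For miR-101a-3p the share was between 2.92% and 22.9%, with the highest value under normexp correction. In the log2 table that the authors deposited, the differences were -0.46 for miR-26a-5p, -2.43 for miR-26b-5p and -1.90 for miR-101a-3p, beside a median of -0.20. That table also lists miR-101b-3p at -1.94 on LLC and -6.80 on MSC+LLC. The latter is the value that every undetected miRNA has on that array, since it stands for a summed signal of 0.1, so the difference of -4.86 measures the fill value and not a fold change.

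A list of 17 other miRNAs known as repressors of Ezh2 was set beside the members, though it was drawn up with earlier results of these arrays known. Of the 17, 13 were detected on LLC, 12 on MSC+LLC and 11 on both, beside 502, 258 and 240 of all 1881 miRNAs. Their median log2 ratio was -1.39, beside 0.15 over all measured miRNAs. At least 2-fold lower were 7 of 11, beside 11.2% of all 240 measured miRNAs. The let-7 family, which represses growth and stem cell genes, made up most of these, with 6 of its 7 measured members at least 2-fold lower, from let-7f-5p at -2.23 ± 0.15 to let-7i-5p at -1.19 ± 0.14. let-7b-5p, with the same seed, stood at -0.60 ± 0.13. miR-144-3p was lowest, at -2.33 ± 0.17, with 10777 ± 1161 (15 spots) on LLC and 186 ± 23.8 (14 spots) on MSC+LLC.

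Not every repressor of Ezh2 was lower. miR-30d-5p, of the miR-30 family, had a log2 ratio of 1.22 ± 0.17, and miR-214-3p, common in mesenchymal cells, 0.82 ± 0.32. miR-25-3p, from the miR-106b cluster, stood at -0.19 ± 0.19, beside the -0.18 of miR-26a-5p. miR-124-3p, a neuronal miRNA, was detected only on MSC+LLC and on 1 of 2 probes, which gave 113 ± 6.10 (14 spots) beside 9.12 ± 4.34 (15 spots) on LLC, at least 62.4-fold higher after scaling. That bound is set against the lowest detected LLC probe (20.9 unscaled) and includes the 11.5-fold scaling between the arrays. let-7e-5p and miR-98-5p were detected only on LLC and, like miR-101b-3p, gave no bound. miR-137-3p, miR-138-5p and miR-217-5p were detected on neither array.

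**Figure D4:**
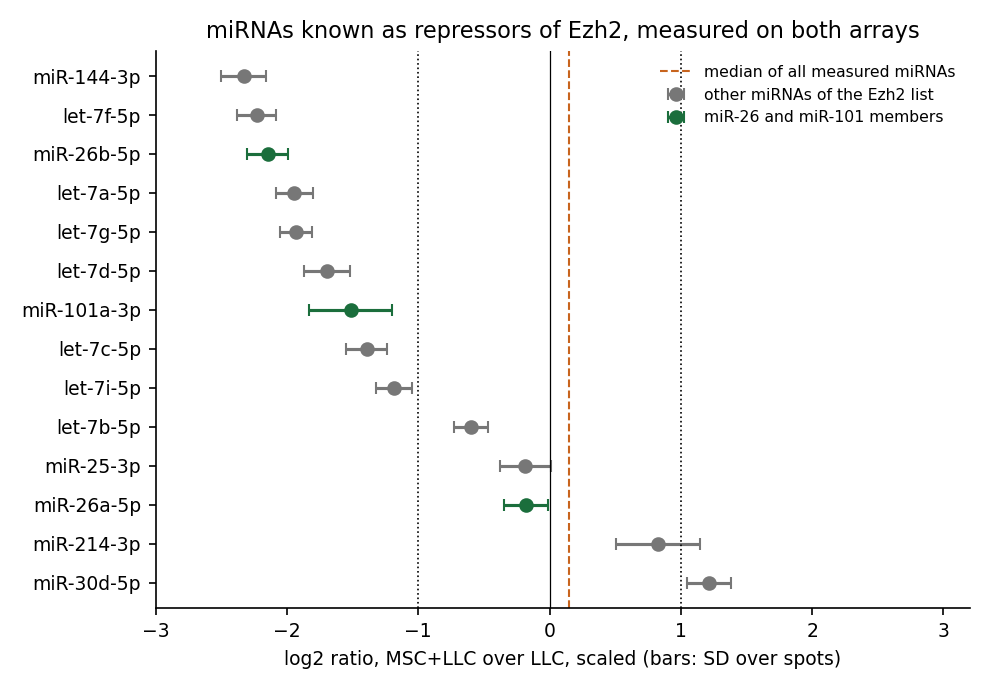
Scaled log2 ratios (MSC+LLC over LLC) of the 3 measured members (green) and the 11 measured miRNAs of the Ezh2 list (grey). Bars are the SD propagated from the spots, with dotted lines at 2-fold and a dashed line at the median of all measured miRNAs (0.15). miR-26b-5p and miR-101a-3p lie among the let-7 miRNAs, and miR-26a-5p lies beside miR-25-3p.

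The members were also set beside their base composition, since the paralogs differ in it. The share of G and C bases was 40.9% in miR-26a-5p, 33.3% in miR-26b-5p and in miR-101a-3p, and 42.1% in miR-101b-3p. RefSeq gave a sequence for 197 of the 240 measured miRNAs, whose median was 52.4%. miR-26b-5p and miR-101a-3p were thus near the low end, with 2.54% of measured miRNAs below them, and miR-26a-5p had 14.7% below it. In the group of miRNAs with the least G and C, from 28.6% to 40.9%, which holds all 3 measured members, the median log2 ratio was -0.61 and 17 of 51 miRNAs were at least 2-fold lower. In the next group, from 42.9% to 52.4%, the median was 0.05 and 3 of 48 were. Above that, from 54.2% to 63.6% and from 65% to 100%, the medians were 0.33 and 0.25, and 0 of 51 and 3 of 47 were at least 2-fold lower. Across the 197 miRNAs of the same 2 arrays Pearson's r was 0.18 and Spearman's rho 0.31. Without 4 miRNAs of the miR-297, miR-466, miR-467 and miR-669 repeat families, r was 0.29 and rho 0.36 over 193 miRNAs. Further measured miRNAs of these families were among the 43 without a sequence, with log2 ratios from 2.02 (miR-669b-5p) to 6.63 (miR-669p-3p). They entered neither the groups nor the correlations, so both describe only the miRNAs with a sequence.

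Among pairs of measured miRNAs with a RefSeq sequence and the same seed, the gap between miR-26a-5p and miR-26b-5p was the largest. The 43 measured miRNAs without a sequence could not be paired. There were 65 such pairs over 18 seeds, 21 of them within let-7, and many share a member. The median size of the difference in log2 ratio was 0.54, beside 1.97 for the miR-26 pair. In 56 pairs the members differed in G and C content, and in 51 of these, the miR-26 pair included, the member with less G and C had the lower ratio. let-7f-5p and let-7b-5p, printed above, had the widest gaps of the 21 let-7 pairs, at 31.8% and 45.5% G and C with log2 ratios of -2.23 and -0.60. Other pairs went the opposite way. miR-3473e (61.9% G and C) stood at 1.23 and miR-3473b (65%) at 0.25, and miR-106b-5p (42.9%) at -0.74 and miR-20b-5p (47.8%) at -1.17. The part of base composition in the members' ratios was not tested.

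**Figure D5:**
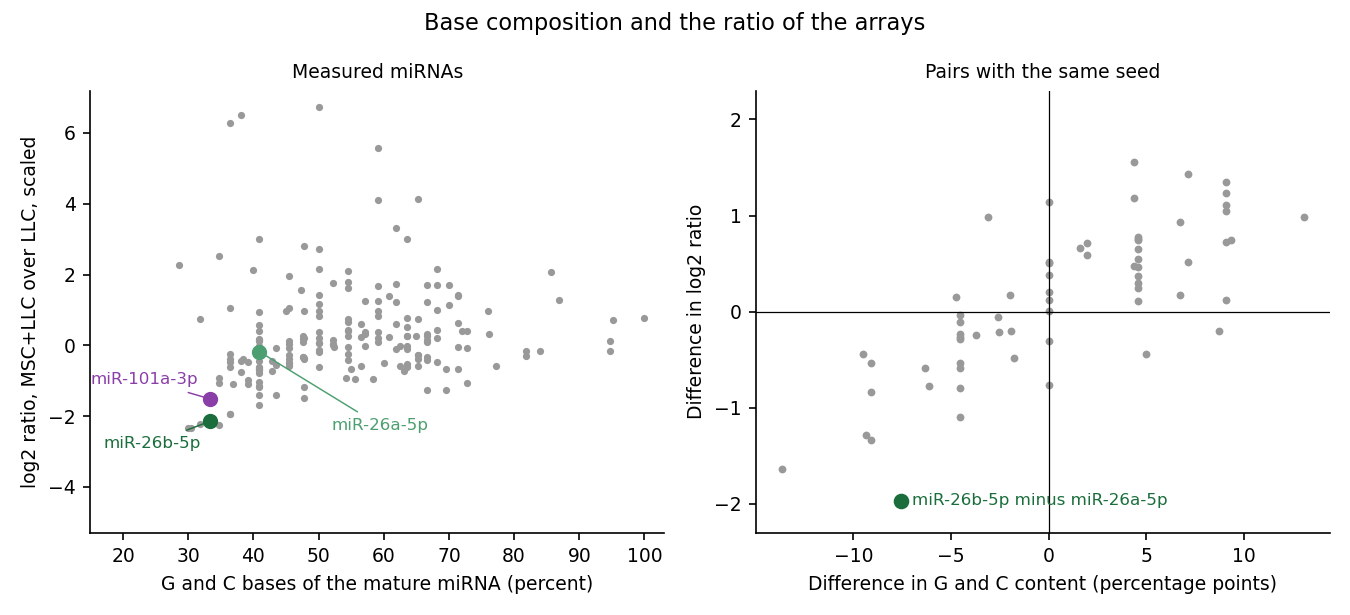
Left, G and C content of the mature miRNA against the scaled log2 ratio (MSC+LLC over LLC) for the 197 measured miRNAs with a RefSeq sequence, with the 3 measured members in colour. Right, the same differences within the 65 pairs that share a seed, each point a pair; the miR-26 pair, in green, has the largest difference in ratio.

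Markers of the cells that feed serum RNA were set beside the members, list by list. Of 4 red cell miRNAs, all measured, miR-451a (1.06) and miR-486a-5p (1.66) were higher and miR-144-3p (-2.33) and miR-144-5p (-2.33) lower, with a summed signal over the brightest probe of each of 30.8 times the 75th percentile on LLC and 70.2 times on MSC+LLC. Of 6 white blood cell and platelet miRNAs, 4 were measured, with miR-142a-3p (-2.25) and miR-142a-5p (-2.12) lower, miR-126a-3p at -0.51 and miR-223-3p at 0.14. miR-150-5p and miR-155-5p were detected only on LLC. The summed signal of this list was 8.29 and 8.59 times the 75th percentile. Of 6 mesenchymal stromal miRNAs, 4 were measured, none changed 2-fold, their median was 0.70, and the sums were 1.26 and 1.59. Their ratios ran from -0.56 (miR-10b-5p) to 0.97 (miR-125b-5p), and miR-143-3p was detected only on LLC. miR-145a-5p, a smooth muscle and stromal marker, was not detected on either array. The liver list (2 of 3 measured, sums of 1.87 and 1.86) had a median of 0.23 with none changed 2-fold. In it miR-122-5p stood at 0.78 and miR-192-5p at -0.32, and miR-194-5p was detected only on LLC. The skeletal muscle list (4 of 4 measured, sums of 3.77 and 7.96) had a median of 1.12, with all 4 above 0 and 3 at least 2-fold higher. For scale, of all 240 measured miRNAs 65 were at least 2-fold higher, 27 at least 2-fold lower, and 42.9% had a ratio below 0. The part of these cell types in the members' ratios was not tested.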

How the data were processed

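Per the file headers, each array was scanned once in 1 colour and read with Feature Extraction 11.5.1.1, while the submitters' processing notes list version 10.7. The scanner files deposited by the authors hold a background-subtracted intensity for each spot, with flags for outliers, saturation and signal well above background. The authors also deposited log2 values from GeneSpring GX 11.0, which were found here to be log2 of the summed signal per miRNA minus a constant for each array (7.02 for LLC, 3.48 for MSC+LLC), with 0.1 as the signal of an undetected miRNA. Columns of samples outside the series numbered 0.

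Outlier spots were left out and the spots of a probe averaged. A probe counted as detected with more than 50% of its kept spots well above background. Signals were scaled to the 75th percentile over probes detected on both arrays, and the ratio of a miRNA was the mean log2 ratio of its probes detected on both. A probe detected on 1 array gave a bound against the higher of its own signal and the lowest detected probe of the other array. With 1 array per group no test was made, and the number of arrays limits the precision. Named miRNAs were the 4 members, the other arms and miR-101c, the Ezh2 list, and for each measured member the 3 miRNAs nearest in ratio with 2 probes measured on both arrays; those named at the 2-fold line and in the marker lists come beside these. miR-142-3p, miR-142-5p and miR-126-3p of the lists were matched as miR-142a-3p, miR-142a-5p and miR-126a-3p. The members and lists were chosen with earlier results of these data known. RefSeq sequences (GRCm38.p6) were matched by name, for 1608 of 1881 miRNAs. Alternatives covered scaling, background, detection, outliers and summaries. Scripts used Python 3.11.15, numpy 2.4.6, pandas 2.3.3, scipy 1.17.1, matplotlib 3.10.9, R 4.3.3 and limma 3.58.1 (normexp, offset 50), and were tested on simulated data.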

Additional observations from a re-analysis of the deposited data

How the results depend on the processing

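Log2 ratios are given here in the order miR-26a-5p, miR-26b-5p, miR-101a-3p. They were -0.18, -2.15 and -1.51 as reported; -1.39, -3.36 and -2.73 when the percentile was taken over all probes; -0.53, -2.66 and -2.19 with quantile normalization; -3.70, -5.67 and -5.04 with no scaling. With spike-in scaling they were -3.07, -5.03 and -4.40 (all 4), -2.39, -4.36 and -3.72 (labelling) and -3.74, -5.71 and -5.08 (hybridization). These scalings moved the median of all measured miRNAs by -1.21, -0.28, -3.53, -2.89, -2.21 and -3.56 in the same order. Normexp correction, which lifts dim signals by its offset and moved the median by 0.69, gave 0.95, -0.76 and 0.076, and the deposited values gave -0.46, -2.43 and -1.90. For miR-26b-5p, counting a probe as detected only where every kept spot was well above background gave -1.92, and subtracting the mean negative control, an alternative chosen after seeing the data, gave -2.35; miR-101a-3p had no value under the former. The remaining alternatives moved the ratios by less than the spot error (9 of 17 for miR-26a-5p, 7 of 17 for miR-26b-5p, 8 of 16 for miR-101a-3p). The difference of miR-26b-5p from miR-26a-5p moved beyond it only with normexp (-1.71). The number of members past the fold threshold was 2 as reported, beside 11.2% of all measured miRNAs. It was 0 with normexp (4.17% of all), 1 of 2 with the every-spot rule (8.08%) and 1 at 4-fold (2.92%). It was 3 under 5 scalings, namely all probes (52.9%), none (90.4%), and the labelling (75%), all 4 (85%) and hybridization (90.4%) spike-ins. Under the other 11 alternatives it was 2, beside 10.8% to 19.7% of all. miR-101b-3p and its difference from miR-101a-3p had no reported value to vary, because no probe was detected on MSC+LLC. The bound for its brighter probe was at least 1.07-fold lower with all probes, 2.14 with labelling, 3.42 with all 4 and 5.47 with hybridization spike-ins. At the reported scaling the probe was 2.52-fold lower with 1 spot above background and 2.62-fold with the scanner software's flag. Those 2 values rest on an MSC+LLC reading in the range of the negative controls and are not firm bounds. No paired analysis was possible because LLC and MSC+LLC had 1 array apiece, and no replicate could be left out for the same reason. The member probes detected on MSC+LLC read between 20.2 and 36.8 there, beside a lowest detected probe of 18.8, which limits every ratio here.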
